A study of Mus musculus with 6 samples.

Results

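The 9 genes described here were taken by symbol and carry the Hedgehog signal between the gut epithelium and its stroma: the ligand Ihh, the receptor Ptch1, the co-receptors Boc and Gas1, the signal transducer Smo, the transcription factors Gli1, Gli2 and Gli3, and the ligand-binding antagonist Hhip. They are 9 of the 33697 genes counted. The cells came from the lamina propria of mice named Flare-TSLP, C57BL/6 knock-in reporter animals in which tdTomato is expressed from the Tslp locus, and were sorted as live and tdTomato+ and captured in droplets for 3′ single-cell RNA sequencing. Proximal jejunum and distal ileum gave 2 libraries each, cecum and large intestine 1 each. No library came from a mouse without the reporter, the labels name no treatment, age or sex, and cells were selected by the fluorescence of the reporter. Every library held 3 hashtag antibodies, which mark pooled cell samples, but the hashtags are not tied to mice in the sources used here, so a library is the unit of replication. The study describes several biological samples for each small intestinal tissue, more than the libraries listed, and the sources used here do not tie these samples to libraries or hashtags. Since nothing states that libraries of 1 region came from separate mice, p-values measure only the spread between these libraries, which may be technical.

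Hedgehog ligands of the intestine are made by the epithelium and are received by the mesenchyme beneath it. Without ligand, the receptor Ptch1 holds Smo inactive and Gli3 and, in part, Gli2 are processed to repressors. Ligand binding, helped by Boc, Gas1 and Cdon, releases Smo and turns Gli2 into an activator, and Gli1, Ptch1 and Hhip are themselves classical transcriptional targets, the latter pair acting as negative feedback. In the adult gut the pathway is known for its part in smooth muscle and subepithelial fibroblast identity.

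Libraries held between 109675337 and 206827504 UMIs, the molecular tags that mark single captured transcripts, and 93912 cells remained after filters and removal of predicted doublets, which were 4.90 to 11.3% of the cells of a library. Median depth was 6602 to 9234 UMIs per cell. Pairs of libraries shared 36 to 102 cell barcodes, at most 0.60% of the smaller. The tdTomato transcript itself gave only 301 to 1081 UMIs per library, so that the reporter could not be checked cell by cell. Cells were placed into classes by marker genes that include none of the 9 members, and 70144 cells (74.7%) passed into a class, 4606 of them near a gate. Telocyte-like cells (Pdgfra, Sox6, F3, Bmp7, Bmp3, Nsg1) numbered 3449, of which 2421 were in the large intestine, and the other 5 libraries held 116 to 468. Subepithelial fibroblast-like cells (Agt, Procr, Nrg1, Wnt4) numbered 9387, trophocyte-like cells (Ackr4, Grem1, Dkk2, Cd34) 18846 and smooth muscle/myofibroblast-like cells (Myh11, Actg2, Des, Cnn1) 2985. All markers of these 4 classes were raised in them, which is no support for the names, since the gate used these same markers. The other stromal classes were Adamdec1 lamina propria fibroblast-like cells (8241), Pi16 universal fibroblast-like cells (5425), cells marked by Gdf10 and Scg2 (1908) and pericyte-like cells (1159). The class names rest on markers alone, and levels below (CPM) are the UMIs of a gene in a class of 1 library, scaled to a class total of 1000000 UMIs. Free RNA, taken from barcodes with at most 100 UMIs, is given in the same unit.

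In the GRCm39 assembly, Ptch1 lies on chromosome 13 (63656142 to 63721412, minus strand) and Gas1 on the same chromosome (60322219 to 60325179, minus strand), as does Gli3 (15637809 to 15904611, plus strand). Gli1 lies on chromosome 10 (127165751 to 127177865, minus strand), Gli2 on chromosome 1 (118761858 to 118982598, minus strand) and Ihh on chromosome 1 (74984474 to 74990837, minus strand). Hhip lies on chromosome 8 (80692480 to 80784658, minus strand), Smo on chromosome 6 (29735407 to 29762532, plus strand) and Boc on chromosome 16 (44305290 to 44379432, minus strand). No annotated gene overlaps any of the 9 on its own strand, and on the opposite strand Gli1 overlaps Arhgap9 and Gm47200, Gli3 overlaps Gm6556 and Gas1 overlaps Gm48488.

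Few UMIs of the ligand were found in the sorted stroma. Ihh gave 147 UMIs over all kept cells, and 98 of these (66.7%) were in the 88 epithelial-like cells that had come through the sort. In those cells the level was 42.0 CPM in proximal replicate 1 (95% exact Poisson interval 23.0 to 70.5, counting error only) and 68.7 CPM in the large intestine (54.8 to 85.1), the 2 libraries with at least 20 such cells. The 8 stromal classes together, 51400 cells, held 27 Ihh UMIs. Of these, pericyte-like cells held 5 in the cecum (2.91 CPM, exact Poisson interval 0.945 to 6.79) and 5 in the large intestine (1.65 CPM, 0.536 to 3.86), and 0 in the other 4 libraries. Free RNA held 0.246 CPM in the cecum and 2.42 CPM in the large intestine. Telocyte-like cells held 0 Ihh UMIs in 3449 cells, which allows a share of cells with a UMI of up to 0.0870%, for counting error only and with most of these cells from 1 library. Free RNA held Ihh at 0.161 to 2.42 CPM, highest in the large intestine. Ihh did not pass the filter on low counts in any comparison and was not tested.

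The receptor Ptch1 was highest in subepithelial fibroblast-like cells. Its level there was 650.3 and 906 CPM in proximal replicates 1 and 2, 389 and 652 CPM in distal replicates 1 and 2, 756 CPM in the cecum and 522 CPM in the large intestine (mean 646 ± 179, SD, n = 6 libraries). Telocyte-like cells came next, with 577, 605, 368, 413, 617 and 656 CPM in the same order (539 ± 119, SD, n = 6). Smooth muscle/myofibroblast-like cells held 433, 418, 273, 432, 373 and 421 CPM (392 ± 62.1, SD, n = 6). Trophocyte-like cells, the CD34+ Grem1+ fibroblasts that support the crypt base, held 159.7, 192, 139, 210.4, 147 and 233 CPM (180.2 ± 37.5, SD, n = 6). Every library of the 3 higher classes lay above every trophocyte library. Among the remaining classes the mean was 323 CPM in Adamdec1 fibroblast-like cells, 153 in Gdf10 Scg2 cells, 144 in universal fibroblast-like cells and 105 in pericyte-like cells. Ranges of neighbouring classes in this order overlapped throughout, although Adamdec1 fibroblast-like cells were above trophocyte-like cells in 6 of 6 libraries and universal fibroblast-like cells above pericyte-like cells in 6 of 6.

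**Figure D1:**
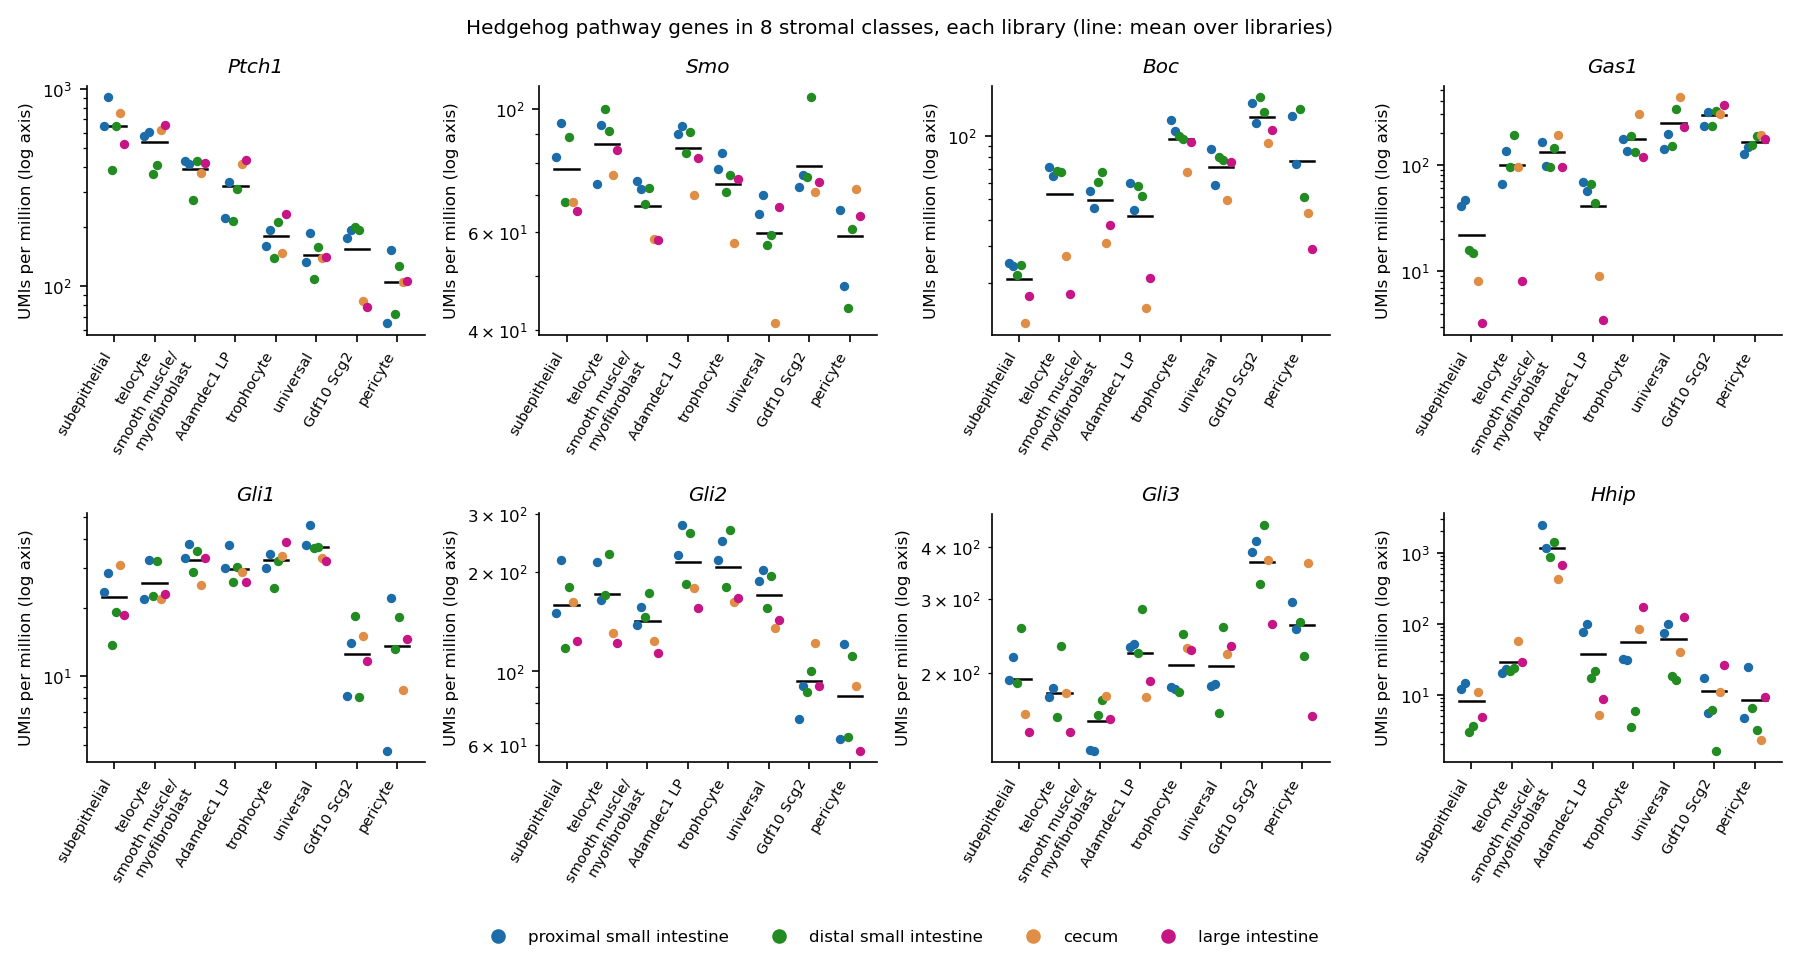
Level of each member (CPM, logarithmic axis) in every stromal class, with 1 point per library and a bar at the mean of up to 6 libraries. Ptch1 is highest in subepithelial and telocyte-like cells, Hhip of the smooth muscle/myofibroblast-like cells lies above all other classes in every library, and Smo varies little between classes.

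Ptch1 UMIs were also found outside the stromal classes. LEC-like cells, lymphatic endothelium, held Ptch1 at 64.4 to 91.5 CPM, against 144 to 325 CPM in free RNA. Thinned to 2500 UMIs, 66.9% of subepithelial fibroblast-like cells, 55.2% of telocyte-like cells, 47.4% of smooth muscle/myofibroblast-like cells and 32.5% of trophocyte-like cells held a Ptch1 UMI, compared with 17.0% of LEC-like cells and 9.02% of T cell/ILC-like cells. Before thinning these shares were 91.3, 81.1, 72.1, 65.2, 36.8 and 19.2%. Gli1 in LEC-like cells was far lower: in the 4 small intestinal libraries, the only ones with at least 10 Gli1 UMIs in these cells, Ptch1 UMIs outnumbered Gli1 UMIs 27.8 to 58.6 times, compared with 3.65 to 5.90 times in the free RNA of the same libraries. The part of free RNA in the Ptch1 of LEC-like cells was not tested.

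The comparison of telocyte-like with trophocyte-like cells asks how the receiving machinery differs between the Pdgfra-high cells beneath the epithelium and the CD34+ cells around the crypt base. Ptch1 was the 1 member higher in telocyte-like cells, by 1.39 on the log2 scale (SE 0.14, 2.61-fold, adjusted p = 0.000237 by edgeR's quasi-likelihood test with Benjamini-Hochberg adjustment over 11730 genes). It was higher in 6 of 6 libraries. Lower were Boc, by -1.23 (SE 0.26, edgeR adjusted p = 0.00877, 6 of 6 libraries), Gli1 by -0.54 (SE 0.14, adjusted p = 0.0193, 5 of 6), Gli2 by -0.47 (SE 0.10, adjusted p = 0.00756, 6 of 6) and Gli3 by -0.41 (SE 0.11, adjusted p = 0.0216, 5 of 6). Gas1 (-1.34, SE 0.52, edgeR adjusted p = 0.0887), Hhip (-0.45, SE 0.66, adjusted p = 0.659) and Smo (0.05, SE 0.09, adjusted p = 0.910) did not pass. Hhip went both ways: in distal replicates 1 and 2 telocyte-like cells held 21.5 and 23.5 CPM against 3.51 and 5.84 CPM. In the cecum and large intestine they held 56.3 and 28.6 CPM against 84.3 and 174 CPM, and both proximal libraries were lower too. Of all genes tested 28.3% were called, 13% higher and 15.3% lower, against 1 of 8 tested members higher and 4 of 8 lower. Ptch1 and Boc kept their calls in all 15 alternatives, whereas the call of Gli1 was lost without proximal replicate 1 (adjusted p = 0.0602), without the large intestine (adjusted p = 0.0526), in the small intestine alone and without TMM scaling, that of Gli3 without distal replicate 1 (adjusted p = 0.0505) and without TMM scaling (adjusted p = 0.106), and that of Gli2 without the library block (adjusted p = 0.0711). Gas1 passed with DESeq2 (-1.34, adjusted p = 0.0208), without a filter on low counts (-1.40, adjusted p = 0.0404) and without distal replicate 2 (-1.72, adjusted p = 0.0426). Without TMM scaling the median of all genes moved by 0.19 on the log2 scale and 74.8% of calls were higher, against 45.9% with it. Smooth muscle markers summed to 231 to 452 CPM in telocyte-like cells and to 41.7 to 77.3 CPM in trophocyte-like cells, and pericyte markers to 128 to 968 and 21.4 to 967 CPM. Their part in the result was not tested.

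Between subepithelial fibroblast-like and trophocyte-like cells Ptch1 was again the 1 member higher, by 1.57 (SE 0.17, 2.96-fold, edgeR adjusted p = 0.000210, 6 of 6 libraries). The co-receptors were the members with the largest decreases: Gas1, a GPI-anchored surface protein that binds ligand together with Ptch1, was lower by -3.62 (SE 0.54, 12.3-fold lower, edgeR adjusted p = 0.00107), and Boc, an immunoglobulin-type surface protein, by -2.48 (SE 0.07, 5.58-fold lower, adjusted p = 9.2e-07). Both were lower in 6 of 6 libraries, with no overlap between the classes. Boc levels were 12.8 to 24.8 CPM in subepithelial and 67.5 to 119.6 CPM in trophocyte-like cells. Gas1 levels were 3.24 to 47.2 CPM and 119 to 299 CPM. Hhip was lower by -2.20 (SE 0.62, edgeR adjusted p = 0.0203), a call that was lost without the cecum (adjusted p = 0.0526). The size ranged from -3.78 after subtraction of 10% free RNA to -1.31 in the small intestine alone for Hhip, which was -2.96 without the library block, and from -4.98 to -2.78 in the same settings for Gas1, which was -2.95 with predicted doublets kept. Gli1 (-0.83, SE 0.13, edgeR adjusted p = 0.00118) and Gli2 (-0.64, SE 0.11, adjusted p = 0.00179) were lower too. Gli3 was called lower (-0.36, SE 0.12, edgeR adjusted p = 0.0383) although its level was higher in 4 of 6 libraries, and the call was lost without TMM scaling (adjusted p = 0.472), without the library block (adjusted p = 0.0543) and without any 1 library other than proximal replicate 2 (adjusted p = 0.0575 to 0.0822). Smo did not pass (-0.17, SE 0.08, edgeR adjusted p = 0.108). Thus 1 of 8 tested members was higher and 6 lower, against 24.1% of all genes in each direction (48.3% in all). Without TMM scaling the median of all genes moved by 0.25 and 74.2% of calls were higher, against 50.0% with it. This comparison shares its trophocyte-like sums with the preceding one.

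**Figure D2:**
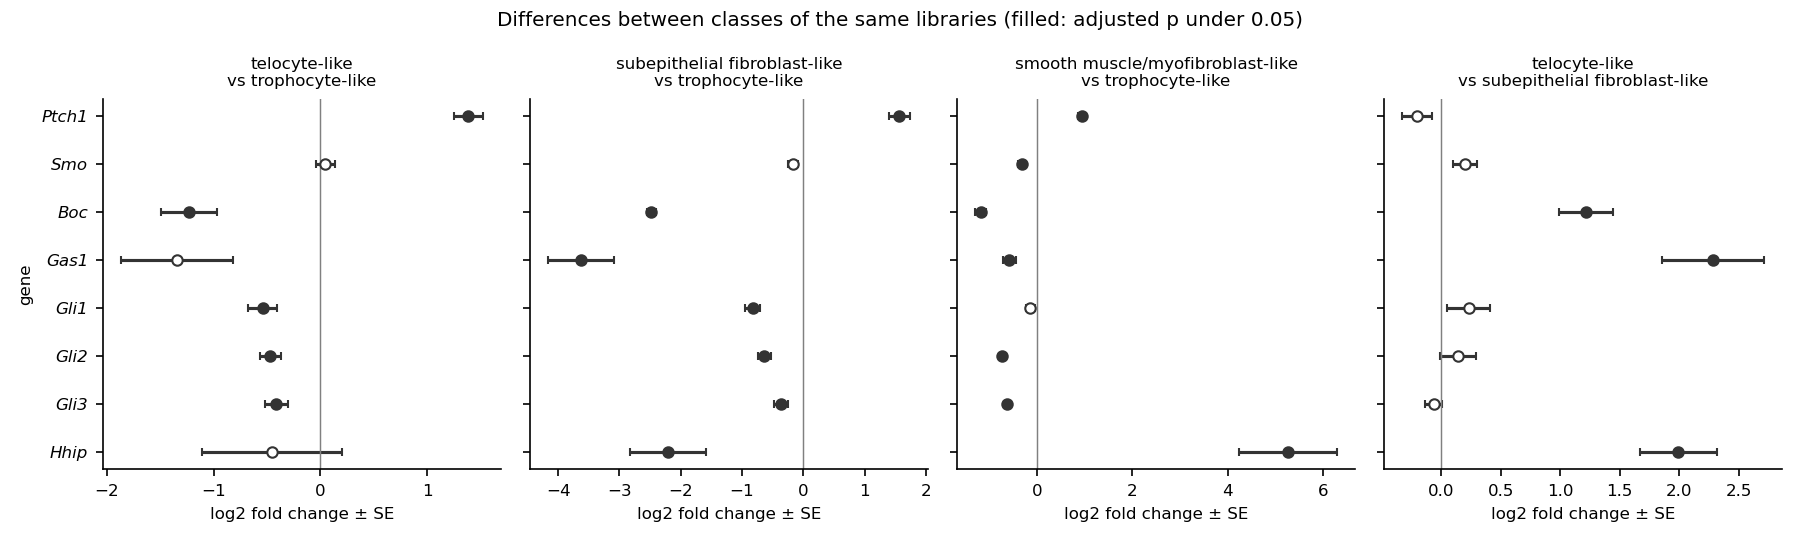
Fitted log2 differences of the 8 tested members in the 4 comparisons between classes, with bars of 1 SE and filled points for an edgeR adjusted p under 0.05. Ptch1 lies above 0 and Boc below 0 in all 3 comparisons with trophocyte-like cells, and Hhip is raised by 5.27 in smooth muscle/myofibroblast-like cells.

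Set directly against each other, telocyte-like and subepithelial fibroblast-like cells did not differ detectably in Ptch1 (-0.20, SE 0.13, edgeR adjusted p = 0.362), Gli1 (0.23, SE 0.18, adjusted p = 0.484), Gli2 (0.14, SE 0.15, adjusted p = 0.652), Gli3 (-0.06, SE 0.07, adjusted p = 0.671) or Smo (0.20, SE 0.10, adjusted p = 0.256). The 3 surface and secreted modulators did differ, each higher in telocyte-like cells in 6 of 6 libraries. Gas1 was higher by 2.28 (SE 0.43, edgeR adjusted p = 0.0109), Hhip by 1.99 (SE 0.33, adjusted p = 0.00596) and Boc by 1.22 (SE 0.23, adjusted p = 0.0108). Hhip levels were 20.4 to 56.3 CPM in telocyte-like and 3.03 to 14.4 CPM in subepithelial fibroblast-like cells and did not overlap. Boc was nearly equal in the large intestine (17.6 against 17.3 CPM, with overlapping Poisson intervals). It was 26.9 against 12.8 CPM in the cecum and 64.8 to 71.7 against 21.8 to 24.8 CPM in the small intestine. These 3 of 8 tested members compare with 13.3% of all genes called, 7.72% higher and 5.55% lower. After thinning, Gas1 was found in a mean of 21.8% of telocyte-like cells with and 10.4% without a Boc UMI, higher in 6 of 6 libraries. In subepithelial fibroblast-like cells these shares were 4.53% and 4.90% (3 of 6). Pericyte markers summed to 128 to 968 CPM in telocyte-like and 45.7 to 345 CPM in subepithelial fibroblast-like cells. Smooth muscle markers summed to 231 to 452 and 226 to 392 CPM. The part of such markers or of a subset of cells was not tested. The Gas1 call was lost without the library block (adjusted p = 0.0706) and after 10% of each sum was subtracted along the free RNA profile (3.64, adjusted p = 0.0552), which moved Hhip to 3.68.

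Smooth muscle/myofibroblast-like cells carried the highest Hhip level in the stroma. Hhip, a membrane-bound and secreted protein that binds Hedgehog ligands and keeps them from Ptch1, reached 2475 and 1171 CPM in proximal replicates 1 and 2, 867 and 1403 CPM in distal replicates 1 and 2, 432 CPM in the cecum and 679.9 CPM in the large intestine (1171 ± 726, SD, n = 6). The lowest of these libraries was above every library of every other stromal class, whose means were 61.4 CPM in universal fibroblast-like cells, 55.0 in trophocyte-like cells, 38.0 in Adamdec1 fibroblast-like cells, 28.9 in telocyte-like cells and 8.14 to 11.3 in the other 3. Against trophocyte-like cells the difference was 5.27 on the log2 scale (SE 1.02, 38.5-fold, edgeR adjusted p = 0.00306, 6 of 6 libraries). The call held in all 15 alternatives, but the size ranged from 4.25 without the library block to 6.61 in the small intestine alone. It was 4.65 without distal replicate 1 and also without distal replicate 2, 5.86 without the cecum, 5.95 without the large intestine and 5.97 after 10% of each sum was subtracted along the free RNA profile. Free RNA held Hhip at 23.4 to 91.5 CPM, and 0.545% of LEC-like cells against 28.3% of smooth muscle/myofibroblast-like cells held a Hhip UMI after thinning to 2500 UMIs (35.8% of the latter before it).

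Ptch1 was also higher in smooth muscle/myofibroblast-like than in trophocyte-like cells (0.94, SE 0.09, 1.92-fold, edgeR adjusted p = 4.4e-05, 6 of 6 libraries). Gli2 (-0.72, SE 0.07, edgeR adjusted p = 7.8e-05), Gli3 (-0.63, SE 0.07, adjusted p = 0.000131), Boc (-1.17, SE 0.12, adjusted p = 7.1e-05), Gas1 (-0.58, SE 0.13, adjusted p = 0.00731) and Smo (-0.32, SE 0.07, adjusted p = 0.00400) were lower. Gli1 did not pass (-0.14, SE 0.09, edgeR adjusted p = 0.25), with levels of 25.1 to 38.2 CPM in smooth muscle/myofibroblast-like and 24.5 to 38.7 CPM in trophocyte-like cells. In all, 2 of 8 tested members were higher and 5 lower, against 22.2% and 24.1% of all genes (46.3% in either direction). The Smo call was lost without TMM scaling (adjusted p = 0.12) and the Gas1 call without the library block (adjusted p = 0.106). Without TMM scaling the median of all genes moved by 0.19 and 71.8% of calls were higher, against 47.9% with it. Trophocyte-like cells again served as the reference. Pericyte markers summed to 613 to 2024 CPM in smooth muscle/myofibroblast-like and to 21.4 to 967 CPM in trophocyte-like cells. Their part in these calls was not tested.

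Within smooth muscle/myofibroblast-like cells, cells with a Ptch1 UMI also held Hhip more often. After thinning to 2500 UMIs, Hhip was found in 48.7% of cells with and 22.4% of cells without a Ptch1 UMI in proximal replicate 1, and in 42.1% and 17.0% in proximal replicate 2. The shares were 33.6% and 17.3% in distal replicate 1, 46.6% and 23.1% in distal replicate 2, 28.0% and 6.61% in the cecum, and 41.4% and 18.8% in the large intestine. The share was higher beside Ptch1 in 6 of 6 libraries. Gli1 UMIs were rarer, and cells with one held Ptch1 in 59.4% ± 7.35 (SD, n = 6) and cells without one in 46.5% ± 2.71, again higher in 6 of 6. Gli2, too, was found in more cells with than without a Ptch1 UMI (31.5% ± 4.26 against 19.7% ± 2.35), in 6 of 6. In trophocyte-like cells this held in 5 of 6 libraries, and in telocyte-like and Adamdec1 fibroblast-like cells in 4 of 6. In subepithelial fibroblast-like cells it held in 2 of 6 (29.1% against 29.4%). Ptch1 was also higher beside Gli1 in 6 of 6 libraries of subepithelial (72.9% against 66.5%) and Adamdec1 fibroblast-like cells (54.8% against 48.0%). In telocyte-like and trophocyte-like cells it was so in 4 of 6. In subepithelial fibroblast-like cells Hhip was found in 1.43% ± 0.69 of cells with and 1.86% ± 1.54 of cells without a Ptch1 UMI (SD, n = 6), higher beside Ptch1 in 3 of 6 libraries. It was higher beside Ptch1 in 6 of 6 libraries of trophocyte-like cells (9.04% ± 9.43 against 6.67% ± 7.39), in 5 of 6 of telocyte-like cells (6.08% ± 3.61 against 4.11% ± 1.23) and in 4 of 6 of Adamdec1 fibroblast-like cells (7.32% ± 7.74 against 6.52% ± 6.51), with overlapping ranges. These shares are descriptions, since cells of a class can differ in state or in remaining doublets.

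The order of classes was not that of Ptch1 for any of the Gli transcription factors. Gli1, which acts only as an activator, had its highest mean in universal fibroblast-like cells (31.9 to 46.2 CPM, mean 37.0 ± 5.06, SD, n = 6). These were above the next class by mean, smooth muscle/myofibroblast-like cells, in 5 of 6 libraries. Trophocyte-like cells were above them in the cecum (33.7 against 32.9 CPM) and the large intestine (38.7 against 31.9 CPM). Smooth muscle/myofibroblast-like cells held 33.0, 38.2, 28.8, 35.5, 25.1 and 33.1 CPM and trophocyte-like cells 29.9, 34.5, 24.5, 32.0, 33.7 and 38.7 CPM, in the order proximal 1 and 2, distal 1 and 2, cecum and large intestine. Telocyte-like cells held 21.9, 32.4, 22.5, 32.0, 21.7 and 23.0 CPM, and subepithelial fibroblast-like cells, where Ptch1 was highest, 23.4, 28.4, 13.7, 19.1, 30.7 and 18.6 CPM. Pericyte-like cells (13.5 CPM) and Gdf10 Scg2 cells (12.5 CPM) had the lowest means. All neighbouring ranges overlapped, and free RNA held Gli1 at 34.0 to 45.3 CPM.

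Gli2, the main activator, was 214 CPM in Adamdec1 fibroblast-like cells and 207 CPM in trophocyte-like cells, and fell to 93.5 CPM in Gdf10 Scg2 cells and 84.2 CPM in pericyte-like cells. Gli3, the main repressor, was highest in these last 2 classes, namely Gdf10 Scg2 cells (261 to 452 CPM, mean 369 ± 67.6, SD, n = 6) and pericyte-like cells (157 to 367 CPM, mean 259.7), and was lowest in smooth muscle/myofibroblast-like cells (129.8 to 176 CPM, mean 153). Gdf10 Scg2 cells were above pericyte-like cells in 6 of 6 libraries. These orders were not tested. Pericyte markers summed to 383 to 4006 CPM in Gdf10 Scg2 cells and to 1805 to 8187 CPM in pericyte-like cells. Their part in these levels was not tested. The transducer Smo, a seven-pass membrane protein, spanned only 59.0 CPM in pericyte-like cells to 86.4 CPM in telocyte-like cells, with every neighbouring pair of classes overlapping.

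The number of Ptch1 UMIs per Gli1 UMI sets the 2 target genes beside each other within a library and class. It is compared here between classes only, since UMIs of different genes may be captured unequally. The ratio was highest in subepithelial fibroblast-like cells (24.6 to 34.1, mean 29.1 ± 3.35, SD, n = 6) and telocyte-like cells (12.9 to 28.5, mean 21.9 ± 6.75). Gdf10 Scg2 cells had 13.7 ± 7.52 (5.61 to 23.8), smooth muscle/myofibroblast-like cells 12.2 ± 1.85 (9.48 to 14.8), Adamdec1 fibroblast-like cells 11.1 ± 3.77 and pericyte-like cells 8.32 ± 2.50 (n = 4). Trophocyte-like cells (4.37 to 6.58, mean 5.59 ± 0.74) and universal fibroblast-like cells (2.96 to 4.41, mean 3.89 ± 0.56) had the lowest, and every library of the subepithelial, telocyte-like and smooth muscle/myofibroblast-like cells lay above every library of the last 2. No test was run on the ratio, whose 2 parts were tested above.

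**Figure D3:**
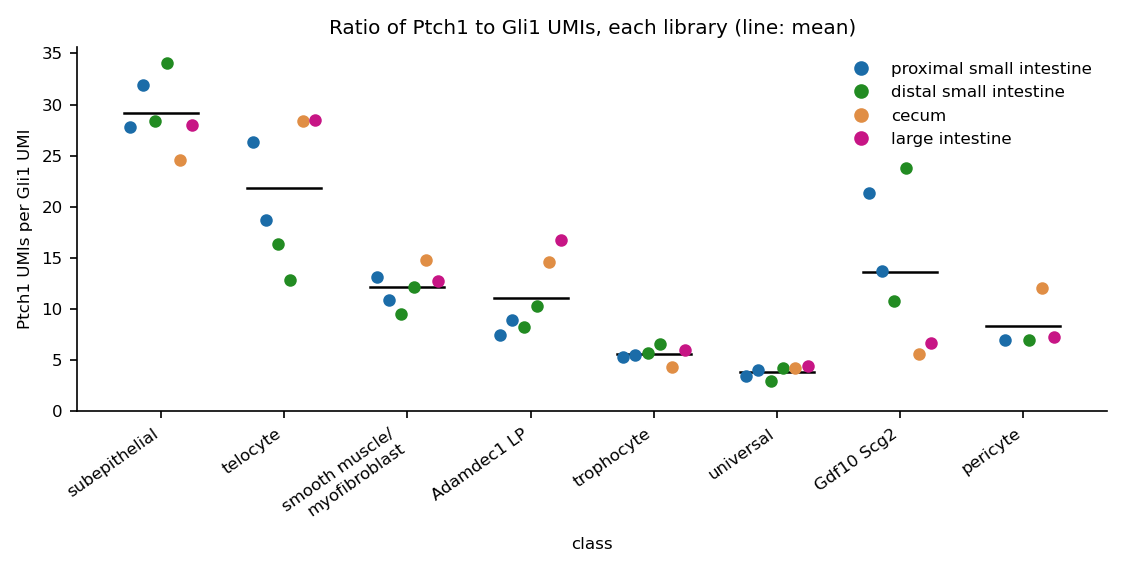
Ptch1 UMIs per Gli1 UMI (linear axis) in each stromal class, 1 point per library with at least 10 Gli1 UMIs and a bar at the mean. Subepithelial fibroblast-like cells lie between 24.6 and 34.1, trophocyte-like cells between 4.37 and 6.58.

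Both co-receptors had their highest mean in Gdf10 Scg2 cells, with 124 CPM for Boc (93.4 to 154) and 293 CPM for Gas1 (231 to 363). The part of the pericyte markers of this class, given above, was not tested. Boc followed in trophocyte-like (97.4 CPM), pericyte-like (76.3 CPM) and universal fibroblast-like cells (71.2 CPM). Gas1 followed in universal fibroblast-like (245 CPM), trophocyte-like (175 CPM) and pericyte-like cells (163 CPM). Gas1 of Gdf10 Scg2 cells was above that of universal fibroblast-like cells in 4 of 6 libraries, with overlapping ranges, and below it in the cecum (298 against 431 CPM) and distal replicate 2 (321.5 against 332 CPM). Boc of Gdf10 Scg2 cells was above that of trophocyte-like cells in 6 of 6 libraries, with overlapping ranges. Subepithelial fibroblast-like cells were last for both, at 20.9 CPM for Boc and 21.8 CPM for Gas1, below Adamdec1 fibroblast-like cells in 6 of 6 libraries. Free RNA held 32.8 to 66.2 CPM of Boc and 57.7 to 175 CPM of Gas1, above the levels in subepithelial fibroblast-like cells in every library.

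Along the gut, Boc of telocyte-like cells was lower in the large bowel, as were its levels in most other stromal classes, given below. The telocyte-like level was 71.7 and 64.8 CPM in proximal replicates 1 and 2 and 68.6 and 67.8 CPM in distal replicates 1 and 2, but 26.9 CPM in the cecum (exact Poisson interval 21.6 to 33.2, 88 UMIs) and 17.6 CPM in the large intestine (16.0 to 19.4, 430 UMIs). The small intestinal and large bowel libraries did not overlap. The fitted difference of the mean of cecum and large intestine from the mean of proximal and distal was -1.59 on the log2 scale (SE 0.19, 3.01-fold lower, edgeR adjusted p = 0.000148), and the call held in all 15 alternatives, between -1.92 and -1.26. A class gated by markers may hold different subsets of cells in different regions, and a change of subset cannot be told apart from a change within cells in any of the regional comparisons. The paper's own clustering placed a telocyte cluster mostly in the large intestine, with few of its cells in the cecum and none in the small intestine. It found trophocytes mainly in small intestinal samples. How the gated classes map onto these clusters was not tested. Cecum and large intestine have 1 library each and are assumed in this fit to vary as the small intestinal replicates do. The cecum and large intestine carried the hashtag set of replicate 1, and within that set alone the Boc difference was -1.66 (edgeR adjusted p = 0.0372, 2 libraries against 2).

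Gas1 of telocyte-like cells was called lower in the large bowel as well (-2.05, SE 0.31, edgeR adjusted p = 0.000841), but 1 library decided this. Levels were 66.4, 135, 96.0 and 192 CPM in the small intestinal libraries, 95.8 CPM in the cecum (85.5 to 107) and 8.12 CPM in the large intestine (7.03 to 9.34). The cecum lay inside the small intestinal range, and without the large intestine the difference was -0.25 (adjusted p = 0.721). Within the libraries of 1 hashtag set it was -0.66 (adjusted p = 0.731), and with both regions of each bowel part pooled as 1 group it was -1.24 (adjusted p = 0.310). It was -3.86 without the cecum, -3.32 after subtraction of 10% free RNA and -1.38 with predicted doublets kept, with the call held in each. Without a regional test, Gas1 of subepithelial fibroblast-like cells was 14.8 to 47.2 CPM in the small intestine, 8.09 CPM in the cecum and 3.24 CPM in the large intestine. In Adamdec1 fibroblast-like cells it was 44.0 to 69.6, 9.02 and 3.48 CPM. Neither class overlapped between bowel parts, whereas all other stromal classes did. Hhip of telocyte-like cells was called higher in the large bowel (0.91, SE 0.20, edgeR adjusted p = 0.00857), with levels of 20.4, 23.0, 21.5 and 23.5 CPM in the small intestine, 56.3 CPM in the cecum (48.5 to 65.1) and 28.6 CPM in the large intestine (26.5 to 30.8). Without the cecum the difference was 0.40 (adjusted p = 0.338), within 1 hashtag set it was 1.03 (adjusted p = 0.207), and DESeq2 gave an adjusted p of 0.123. Ptch1 (0.46, SE 0.19, edgeR adjusted p = 0.107), Gli2 (-0.56, SE 0.20, adjusted p = 0.0635), Gli1, Gli3 and Smo did not pass. Telocyte-like levels of Gli2 were 165 to 226 CPM in the small intestine and 122 to 131 CPM in the large bowel. Those of Ptch1 were 368 to 605 CPM and 617 to 656 CPM. So 1 of 8 tested members was higher and 2 lower, where 20% of all genes were called, 10.1% higher and 9.98% lower.

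**Figure D4:**
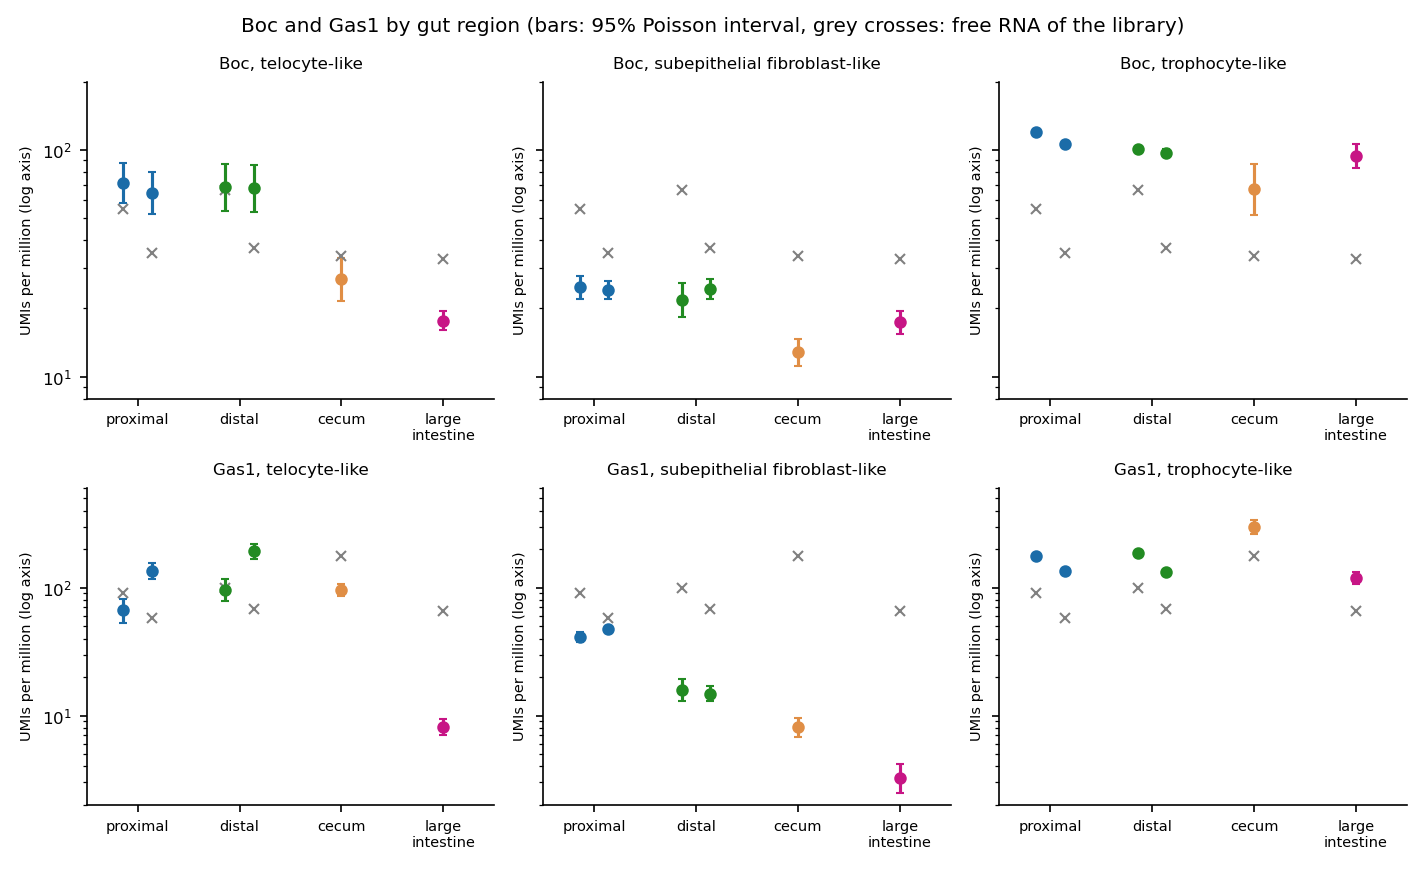
Boc and Gas1 (CPM, logarithmic axis) in telocyte-like, subepithelial fibroblast-like and trophocyte-like cells by gut region, with 1 point per library, bars for the 95% Poisson interval and grey crosses for free RNA. Boc of telocyte-like cells is 64.8 to 71.7 in the 4 small intestinal libraries and 17.6 and 26.9 in the large bowel libraries, while Gas1 of telocyte-like cells is low in the large intestine alone.

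In trophocyte-like cells Boc was 119.6 and 105.9 CPM in the proximal, 97.1 and 100.4 CPM in the distal small intestine, 67.5 CPM in the cecum (51.5 to 86.8) and 94.0 CPM in the large intestine (83.2 to 106), and the large bowel difference did not pass (-0.37, SE 0.15, edgeR adjusted p = 0.165). Even so, the levels of the small intestinal and large bowel libraries did not overlap. The large bowel effect on Boc differed between the 2 classes by -1.41 (SE 0.27, edgeR adjusted p = 0.0192 for the difference itself, 5.47% of all genes called, 1.76% with a more positive and 3.7% with a more negative effect in telocyte-like cells). Without the large intestine this difference was -0.69 (adjusted p = 0.231), and the call was also lost without proximal replicate 2 (-1.42, adjusted p = 0.0567) and without distal replicate 1 (-1.37, adjusted p = 0.0632). This test pooled proximal with distal and cecum with large intestine, so spread between them entered its error. No other member passed it with all libraries. Gas1 (-2.37, SE 0.68, edgeR adjusted p = 0.0822) and Hhip (-2.36, SE 0.88, adjusted p = 0.183) passed it when the cecum was left out (-3.42, adjusted p = 0.000440, and -3.09, adjusted p = 0.00986) and without a filter on low counts (adjusted p = 6.1e-05 and 0.00206), and Gas1 also with DESeq2 (adjusted p = 0.0116). In subepithelial fibroblast-like cells, for which no regional test was run, Boc was 21.8 to 24.8 CPM in the small intestine and 12.8 and 17.3 CPM in the large bowel, and in Adamdec1 fibroblast-like cells it was 44.7 to 60.1 CPM against 15.1 and 21.0 CPM. Also without a test, smooth muscle/myofibroblast-like cells held 45.5 to 67.3 CPM against 30.9 and 37.7 CPM. Gdf10 Scg2 cells held 116 to 154 CPM against 93.4 and 107 CPM, and pericyte-like cells 51.2 to 136 CPM against 43.1 and 29.1 CPM. None of these overlapped, whereas the ranges of universal fibroblast-like cells did (58.5 to 86.7 CPM against 49.5 and 75.4 CPM).

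Hhip of trophocyte-like cells changed along the whole gut. It stood at 31.9 and 30.6 CPM in the proximal and at 3.51 and 5.84 CPM in the distal replicates, then at 84.3 CPM in the cecum (66.3 to 105.7, 75 UMIs in 135 cells) and 174 CPM in the large intestine (159 to 189.8, 499 UMIs in 286 cells). None of the 3 ranges overlapped. The large bowel was higher than the small intestine by 3.38 (SE 0.20, 10.4-fold, edgeR adjusted p = 0.000601), and Hhip was the only 1 of 8 tested members called in this comparison, against 8.44% of all genes (3.49% higher and 4.95% lower). The median of all genes in it was -0.20. Within the libraries of 1 hashtag set the Hhip difference was 2.97 (adjusted p = 0.0516), and with both regions of each bowel part pooled as 1 group it was 2.94 (adjusted p = 0.0553). Proximal was higher than distal by 2.79 (SE 0.22, 6.92-fold, edgeR adjusted p = 0.0117), again the only member called, against 0.495% of all genes (0.236% higher and 0.259% lower). With limma-voom, which called 0 genes there (1312 at an unadjusted p under 0.05), its adjusted p was 0.0506, and 0.0502 with predicted doublets kept, where edgeR also called 0 genes (1127 at an unadjusted p under 0.05). Over the 13 alternatives the proximal difference ranged from 2.48 to 4.95, the latter after subtraction of 10% free RNA (adjusted p = 0.0490), which also raised the large bowel difference to 4.82. Free RNA held Hhip at 91.5, 66.8, 23.4 and 72.1 CPM in proximal 1 and 2 and distal 1 and 2, and smooth muscle markers, whose class is rich in Hhip, summed to 49.1, 41.7, 54.6 and 77.3 CPM in the trophocyte-like cells of these libraries. In the cecum and large intestine free RNA held 35.5 and 54.8 CPM of Hhip. Over all 6 libraries, smooth muscle markers summed to 41.7 to 77.3 CPM and pericyte markers to 21.4 to 967 CPM in trophocyte-like cells. The part of free RNA or of these markers in either regional difference was not tested.

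**Figure D5:**
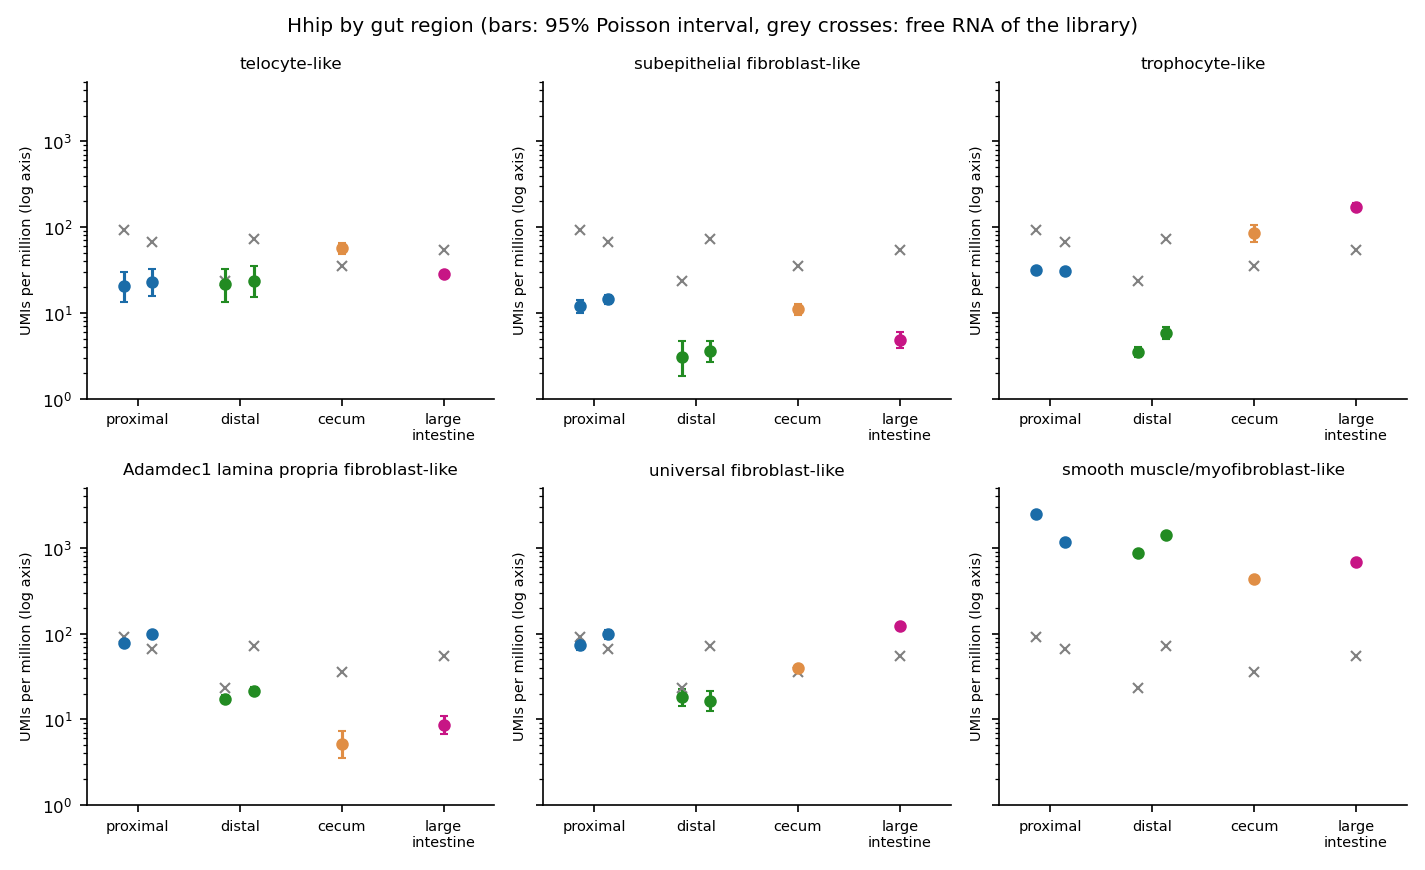
Hhip (CPM, logarithmic axis) by gut region in 6 stromal classes, with 1 point per library, bars for the 95% Poisson interval and grey crosses for free RNA. Trophocyte-like cells lie at 30.6 to 31.9 in the proximal and 3.51 to 5.84 in the distal small intestine, telocyte-like cells at 20.4 to 23.0 and 21.5 to 23.5.

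Telocyte-like cells did not show the proximal excess. Their Hhip levels were 20.4 and 23.0 CPM in the proximal and 21.5 and 23.5 CPM in the distal replicates (-0.10, SE 0.30, edgeR adjusted p = 0.984), and 0 of 8 tested members were called between proximal and distal telocyte-like cells, where edgeR called 0.06% of all genes (0.00857% higher, 0.0514% lower; 703 genes had an unadjusted p under 0.05). DESeq2 called 25 genes and limma-voom 3. Ptch1, which did not pass, was 577 and 605 CPM in the proximal and 368 and 413 CPM in the distal replicates (0.56, SE 0.23, edgeR adjusted p = 0.758). The proximal effect on Hhip differed between telocyte-like and trophocyte-like cells by -2.86 (SE 0.34, edgeR adjusted p = 0.000115 for the difference itself), against 0.56% of all genes called (0.444% more positive and 0.116% more negative in telocyte-like cells), and in all 11 alternatives the call held, between -5.74 after subtraction of 10% free RNA and -2.59. The other 7 tested members did not pass this test. Levels without a test followed the trophocyte-like pattern in 3 further classes: the mean of the proximal libraries was 4.95-fold the distal mean in universal fibroblast-like, 4.51-fold in Adamdec1 fibroblast-like and 4.0-fold in subepithelial fibroblast-like cells, with no overlap in any of them. In smooth muscle/myofibroblast-like cells it was 1.61-fold with overlapping ranges. Toward the large bowel these classes parted, since Adamdec1 fibroblast-like cells fell to 5.13 and 8.64 CPM in cecum and large intestine whereas universal fibroblast-like cells held 39.4 and 123 CPM.

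Other genes of the pathway, 26 genes fixed as a list, were spread over both directions. Between telocyte-like and trophocyte-like cells 4 of 21 tested were higher and 2 lower (28.3% of all genes called, 13% higher and 15.3% lower, median log2 difference 0.12, all genes 0.01). The higher ones were Kif7, a ciliary kinesin that regulates Gli proteins (0.86), Hhat, which acylates the ligand (0.72), Disp1, which releases it (0.54), and the ciliary motor gene Kif3a (0.47), and the lower ones Mgrn1 (-0.48) and Evc2 (-0.44). The Mgrn1 call was lost in 10 of 15 alternatives (adjusted p up to 0.14), that of Kif3a in 2 and those of Kif7, Disp1 and Evc2 in 1 each. In subepithelial fibroblast-like against trophocyte-like cells 8 of 22 were higher and 9 lower (24.1% of all genes in each direction, median 0.04, all genes 0.02). The third co-receptor, Cdon, was lower by -4.19 (SE 0.36, edgeR adjusted p = 6.3e-05, 6 of 6 libraries), as Boc and Gas1 were, at 0.545 CPM against 9.52 CPM. The call held in all 15 alternatives, but with so few UMIs the size ranged from -10.7 to -2.81. Scube2, which helps to release ligand, was lower by -1.66, whereas Scube1 (2.55), Gpr161 (1.01) and Tulp3 (0.92) were higher. The last pair are ciliary proteins that dampen the pathway. The Scube2 call was lost in 4 of 15 alternatives (adjusted p up to 0.0818).

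Cdon was again the list gene with the largest difference between telocyte-like and subepithelial fibroblast-like cells (4.10, SE 0.59, edgeR adjusted p = 0.00355, 6 of 6 libraries), with Scube3 (2.72) and Hhat (0.77) also higher and Scube1 (-1.89), Tulp3 (-0.74) and Gpr161 (-0.60) lower, so that 3 of 23 tested were higher and 3 lower (7.72% and 5.55% of all genes, median 0.11, all genes -0.01). Of 15 alternatives each, the Scube3 call was lost in 9 (adjusted p up to 0.145), that of Tulp3 in 5 (up to 0.111), that of Gpr161 in 4 (up to 0.290) and that of Hhat in 1. In smooth muscle/myofibroblast-like against trophocyte-like cells 8 of 22 were higher and 6 lower (22.2% and 24.1% of all genes, median 0.11, all genes -0.01), led by Scube3 (4.74), Scube2 (2.55), Cdon (-1.63), Gpr161 (1.33), Scube1 (1.19) and Evc (-0.65), of which Cdon lost its call in 1 of 15 alternatives. Between regions, 0 of 22 were higher and 4 lower in large bowel telocyte-like cells (10.1% and 9.98% of all genes), and 1 of 22 was higher and 2 lower in large bowel trophocyte-like cells (3.49% and 4.95% of all genes). Between proximal and distal small intestine edgeR called 0 of 22 in telocyte-like and 0 of 23 in trophocyte-like cells.

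Of 8 genes reported to respond to Hedgehog in gut mesenchyme, 6 of 7 tested were higher and 1 lower in telocyte-like than in trophocyte-like cells (13% and 15.3% of all genes, median 1.00, all genes 0.01). Foxl1, the winged-helix factor that defines telocytes in other work and that was not used in the gates, was higher by 7.22 (SE 0.29, edgeR adjusted p = 1.8e-06), at 35.8 CPM against 0.189 CPM. Foxf2 (2.37), Foxf1 (0.89), Ccnd1 (1.05), Myocd (1.00) and Bmp4 (0.72) were higher. The lower one was Bcl2 (-0.39), which falls outside the rule for named genes, was named after its values were seen and had no alternative run on it in this comparison. The Myocd call was lost in 4 of 15 alternatives (adjusted p up to 0.652), and smooth muscle markers were more abundant in these telocyte-like cells, as given above. In subepithelial fibroblast-like cells 6 of 8 were higher and 1 lower (24.1% of all genes in each direction, median 1.19, all genes 0.02), with Foxl1 (6.38), Mycn (2.18), Foxf2 (2.09), Ccnd1 (1.23) and Foxf1 (0.64) higher and Bcl2 (-1.31) lower. In smooth muscle/myofibroblast-like cells 5 of 7 were higher and 2 lower (22.2% and 24.1% of all genes, median 0.70, all genes -0.01), with Foxl1 (5.94), Myocd, a coactivator of smooth muscle genes (5.42), Foxf2 (2.02), Foxf1 (0.70) and Ccnd1 (0.61) higher and Bcl2 (-0.45) lower. The calls of Bcl2 and Ccnd1 were lost in 5 and 2 of 15 alternatives. Between telocyte-like and subepithelial fibroblast-like cells 2 of 8 were higher, Bcl2 (0.91) and Foxl1 (0.84), and 0 lower (7.72% and 5.55% of all genes, median 0.17, all genes -0.01), and Foxl1 lost its call in 1 of 15 alternatives (adjusted p = 0.413). In the large bowel 4 of 7 were higher and 2 lower in telocyte-like cells (10.1% and 9.98% of all genes) and 1 of 7 higher and 2 lower in trophocyte-like cells (3.49% and 4.95% of all genes). These responders come from other work at other stages and are no measure of pathway activity here.

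Over the 48 sums of library and stromal class, the genes whose log2 level was most like that of Ptch1 among 7408 genes were Arhgap28 (Pearson r = 0.92), Pla2g4a (0.89), Ptgs1 (0.86), Pcdh7 (0.86) and Exoc2 (0.85). Between the members themselves r with Ptch1 was 0.37 for Gli1, -0.67 for Boc and -0.64 for Gas1. Most like Gli1 were Sema3c (0.86), itself a gate marker of universal fibroblast-like cells, Syt11 (0.84), Fhl1 (0.83), Arhgap20 (0.83) and Stxbp6 (0.83), and r with Gli2 was 0.77. Most like Hhip were Pdlim7 (0.80), Cnn1 (0.73), a smooth muscle gate marker, Pygb (0.70), Edem1 (0.68) and Apba1 (0.68). The sums share 6 libraries and 8 classes and are not independent points.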

How the data were processed

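The authors counted UMIs on a mm39 reference extended by tdTomato and deposited these raw counts for every barcode (Cell Ranger 8.1.0 per the submitters' notes, 8.0.1 in the file headers), before their removal of doublets and ambient RNA. From these counts, cells were required to have 2500 to 40000 UMIs, 1000 to 7500 genes and less than 10% of UMIs on mitochondrial genes. Doublets were predicted by Scrublet in scanpy at 0.8% per 1000 cells and removed. Cells were assigned to the class with the highest mean marker z score, if that was at least 0.5 and 0.25 above the next and at least 2 specific markers were detected. These thresholds were set after marker scores had been seen, and members and gene lists were chosen with earlier results of these data known.

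UMIs were summed per library and class (at least 20 cells) and tested with edgeR's quasi-likelihood test (TMM, filterByExpr minimum count 10, Benjamini-Hochberg at 0.05), with library as a block between classes and 4 regions as groups within a class. Tests of a difference between classes took library as a block and 2 groups. These were large bowel and small intestine, or proximal and distal among small intestinal libraries. The former pooled regions, so its size need not equal the gap between the 4-group fits. The SE is the fitted difference divided by the square root of F. Tests were checked on simulated data. A gene that did not pass is not shown to be unchanged. CPM intervals cover counting error only. Shares were thinned to 2500 UMIs. Coordinates are those of GENCODE vM39. Genes named are the 9 members, up to 6 called genes per list and comparison with the largest differences, and the 5 genes most like Ptch1, Gli1 and Hhip above a mean of 20 CPM. A list gene that this rule names is not reported here. Alternatives were limma-voom, DESeq2, no filter, leaving out each library, dropping the library block between classes, adding a replicate block between proximal and distal, the libraries of 1 hashtag set alone for the large bowel, small intestine alone, 2 groups, predicted doublets kept, a stricter gate, 10% free RNA subtracted and, added after the data had been seen, no TMM scaling and both tests of a difference between classes. Tests ran in edgeR 4.0.16, DESeq2 1.42.0 and limma 3.58.1 under R 4.3.3, and the rest in scanpy 1.11.5, scipy 1.17.1, pandas 2.3.3, numpy 2.4.6 and matplotlib 3.10.9 under Python 3.11.15.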

Additional observations from a re-analysis of the deposited data

Results flagged for a closer look

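The effect of the large bowel on Boc differed between telocyte-like and trophocyte-like cells by -1.41 on the log2 scale (SE 0.27, edgeR adjusted p = 0.0192 for the difference), and was singled out because a test of the difference itself passed. The call was lost without the large intestine (-0.69, adjusted p = 0.231). The effect of the proximal against the distal small intestine on Hhip differed between the same classes by -2.86 (SE 0.34, edgeR adjusted p = 0.000115 for the difference) for the same reason. Both tests were added after the levels had been seen.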

How the results depend on the processing

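Of the values of named genes recomputed under each alternative, 1206 kept direction and side of the threshold, 83 lost and 8 gained the call, and 6 reversed, of which none was called in the report: Hhip between telocyte-like and trophocyte-like cells (0.37 in the small intestine alone and -0.86 to 0.12 without single libraries, positive without the large intestine), Smo between the same classes (-0.011 to 0.11 without single libraries, negative without distal replicate 1), Smo between subepithelial fibroblast-like and trophocyte-like cells (0.078 without TMM scaling), Gli1 between smooth muscle/myofibroblast-like and trophocyte-like cells (0.051 without TMM scaling) and Gas1 between regions in trophocyte-like cells (-0.37 to 0.92 without single libraries, negative without the cecum). The cause was not tested.

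Counts of called genes moved most between regions. Without the library block, 974 genes in place of 1844 were called between telocyte-like and subepithelial fibroblast-like cells (3010 in the small intestine alone) and 3660 in place of 5775 between smooth muscle/myofibroblast-like and trophocyte-like cells. Between large bowel and small intestine, the telocyte-like count was 2196, 1220 with DESeq2 and 358 within the libraries of 1 hashtag set, and the trophocyte-like count was 1419, 643 with limma-voom, 2896 without a filter and 837 within the libraries of 1 hashtag set. Between proximal and distal telocyte-like cells the count was 7, 3 with limma-voom, 25 with DESeq2, 130 without a filter, 152 with the replicate block, 3 with predicted doublets kept, 2 with the stricter gate and 4 after subtraction of free RNA. In trophocyte-like cells it was 88, 0 with limma-voom, 157 with DESeq2, 550 without a filter, 847 with the replicate block, 0 with predicted doublets kept and 138 without TMM scaling. The large bowel difference between the classes gave 713 genes and 1218 without a filter, and the proximal difference gave 92, 28 with limma-voom, 54 with DESeq2 and 262 without a filter. Replicates with the same number deviated together (correlation 0.18 in telocyte-like and 0.46 in trophocyte-like cells), but 2 numbers do not establish a pairing and the labels state none.

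Leaving out 1 library at a time gave 2356 to 3080 genes between telocyte-like and trophocyte-like, 5612 to 7971 between subepithelial fibroblast-like and trophocyte-like, 1054 to 2252 between telocyte-like and subepithelial fibroblast-like and 4592 to 6239 between smooth muscle/myofibroblast-like and trophocyte-like cells. The ranges were 1043 to 2427 and 506 to 3060 for the large bowel in telocyte-like and trophocyte-like cells, 13 to 104 and 24 to 144 for proximal against distal, and 174 to 1012 and 130 to 400 for the large bowel and proximal differences between classes. Thinning to 2500 UMIs lowered the mean share of cells with a UMI to 66.9% for Ptch1 in subepithelial fibroblast-like, 8.75% for Gli1 in universal fibroblast-like, 38.4% for Gli2 in Adamdec1 fibroblast-like, 55.1% for Gli3, 22.8% for Boc and 46.3% for Gas1 in Gdf10 Scg2 and 20.0% for Smo in telocyte-like cells. Telocyte-like sums of 116 to 177 cells in the small intestine and trophocyte-like sums of 135 and 286 cells in the large bowel limit the regional comparisons. So does the number of libraries, 1 each for cecum and large intestine.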
